A study of Mus musculus with 9 samples.

Results

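The genes that write, copy and remove DNA methylation were followed in 9 RNA-seq libraries of mouse embryonic stem (ES) cells. The group held 9 genes, taken by symbol from the count tables: the methyltransferases Dnmt1, Dnmt3a and Dnmt3b, their partners Uhrf1 and Dnmt3l, the TET enzymes Tet1, Tet2 and Tet3, and the glycosylase Tdg. All 9 were found among 40213 symbols, and all 9 had enough counts to enter the test, as did 16562 symbols in all. The first group of 3 libraries came from a stable line, called a Niwa line in the labels, that carries EWS-OCT4, in which the RNA-binding protein EWS is joined to OCT4. The second group of 3 came from a Niwa line with OCT4 itself, and the last group of 3 from J1, a widely used mouse ES cell line that served as the control. OCT4, the product of Pou5f1, keeps ES cells pluripotent, and the study addressed whether EWS-OCT4 can stand in for it in self-renewal. All groups were grown with LIF, the cytokine of self-renewal, and the stable lines received 1 µg/ml doxycycline to lower endogenous OCT4. The labels do not say whether J1 received doxycycline, whether the numbered libraries were separate cultures or clones, or which promoter drives either construct. In each comparison with J1, the construct, the host line and the doxycycline as labelled change together and cannot be told apart. Between EWS-OCT4 and OCT4, the construct and the stable line that carries it also change together. The p-values rest on the spread between libraries alone, and that spread may be technical. The test shared a single estimate of spread per gene over all groups, although libraries varied less within EWS-OCT4 than within OCT4 or J1.

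DNA methylation is set at CpG dinucleotides by de novo enzymes and copied to the new strand after replication by Dnmt1, which Uhrf1 brings to half-methylated sites. Dnmt3a and Dnmt3b are the de novo enzymes, and Dnmt3l, which has no catalytic activity of its own, is a cofactor that stimulates both. TET enzymes oxidise methylated cytosine, and Tdg excises the more oxidised products so that base excision repair can restore an unmethylated base. ES cells are known for abundant Tet1, Tet2, Dnmt3b and Dnmt3l and for making a shorter Dnmt3a protein, Dnmt3a2, from an internal start site. Neither methylation nor protein was measured here, so every value below is an RNA level.

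Windows of 250 bases upstream of start sites of the 3 Dnmt3 genes are shown first (RefSeq, GRCm38.p6, plus strand, with every CpG in capitals). The windows differ in CpG content, and any relation of that content to the RNA changes was not tested. Dnmt3a has 3 annotated start sites, of which the second lies in chr12:3806910-3807159 and the last, farther inside the gene, in chr12:3891494-3891743. The Dnmt3b window is chr2:153649199-153649448 and the first of 3 Dnmt3l windows is chr10:78042037-78042286.
Dnmt3a, second start: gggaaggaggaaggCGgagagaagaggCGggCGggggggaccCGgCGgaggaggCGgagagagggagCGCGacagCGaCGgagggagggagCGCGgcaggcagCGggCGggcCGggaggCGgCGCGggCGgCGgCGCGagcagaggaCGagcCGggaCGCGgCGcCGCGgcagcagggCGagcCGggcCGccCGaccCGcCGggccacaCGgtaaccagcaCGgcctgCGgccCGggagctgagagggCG
Dnmt3a, internal start: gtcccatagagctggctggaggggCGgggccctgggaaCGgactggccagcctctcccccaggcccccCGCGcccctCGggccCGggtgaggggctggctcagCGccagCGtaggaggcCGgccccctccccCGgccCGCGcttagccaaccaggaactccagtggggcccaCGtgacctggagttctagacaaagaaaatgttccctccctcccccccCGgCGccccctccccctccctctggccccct
Dnmt3b: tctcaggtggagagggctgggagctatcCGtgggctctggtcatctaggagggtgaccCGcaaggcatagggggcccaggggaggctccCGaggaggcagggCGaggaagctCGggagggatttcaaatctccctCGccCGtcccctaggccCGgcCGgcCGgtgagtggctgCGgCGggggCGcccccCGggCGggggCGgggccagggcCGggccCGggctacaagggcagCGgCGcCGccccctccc
Dnmt3l, first start: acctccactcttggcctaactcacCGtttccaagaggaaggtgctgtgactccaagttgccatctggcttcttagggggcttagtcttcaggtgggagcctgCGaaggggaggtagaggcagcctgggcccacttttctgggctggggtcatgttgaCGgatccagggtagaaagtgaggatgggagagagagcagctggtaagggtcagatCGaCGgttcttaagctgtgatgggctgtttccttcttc
The second Dnmt3a window held 40 CpGs, and 98.7% of 32851 annotated windows of that length held fewer. The last Dnmt3a window held 15 CpGs (72.7% of windows held fewer), the Dnmt3b window 21 (83.7%) and the first Dnmt3l window 5 (44.4%), where the median window held 6. The octamer ATGCAAAT, the classic sequence bound by OCT4, was in none of the windows of the 9 genes when both strands were searched, and 1.6% of all windows held it. That says only that these letters are not in these windows. Deposited counts are per gene and do not tell which start site an RNA came from.

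In both comparisons involving EWS-OCT4, Dnmt3a ran against most other members. It was lower in EWS-OCT4 than in OCT4, and in both stable lines it was below J1, while Dnmt3b and Dnmt3l were higher in EWS-OCT4 than in either other group. Tet3 was also lower in EWS-OCT4 than in OCT4, and the other members that passed the test in a comparison involving EWS-OCT4 were all higher there. Of the 9 members, 8 passed an adjusted p of 0.05 between EWS-OCT4 and OCT4, 6 higher and 2 lower in EWS-OCT4. Of all tested genes 66.5% passed, 31.9% higher and 34.6% lower. Between EWS-OCT4 and J1 7 passed, 6 higher and 1 lower in EWS-OCT4, against 61.9% of all genes, 30.3% higher and 31.6% lower. Between OCT4 and J1 8 passed, 3 higher and 5 lower in OCT4, against 67.0% of all genes, 34.3% higher and 32.7% lower. Since most tested genes passed in each comparison, the number of members called is no result about the members, and the size and direction of each change carry the description. The median log2 fold change of the members was 0.33, 0.47 and -0.20 in the 3 comparisons, where that of all tested genes was -0.04, 0.00 and 0.01. Changes of at least 2-fold were passed by 4 members between EWS-OCT4 and OCT4 (24.3% of all genes), by 1 between EWS-OCT4 and J1 (20.5%) and by 2 between OCT4 and J1 (26.5%). The 2 groups' libraries did not overlap for 8 members between EWS-OCT4 and OCT4 (72.9% of all genes), for 8 between EWS-OCT4 and J1 (65.7%) and for 7 between OCT4 and J1 (68.4%).

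**Figure D1:**
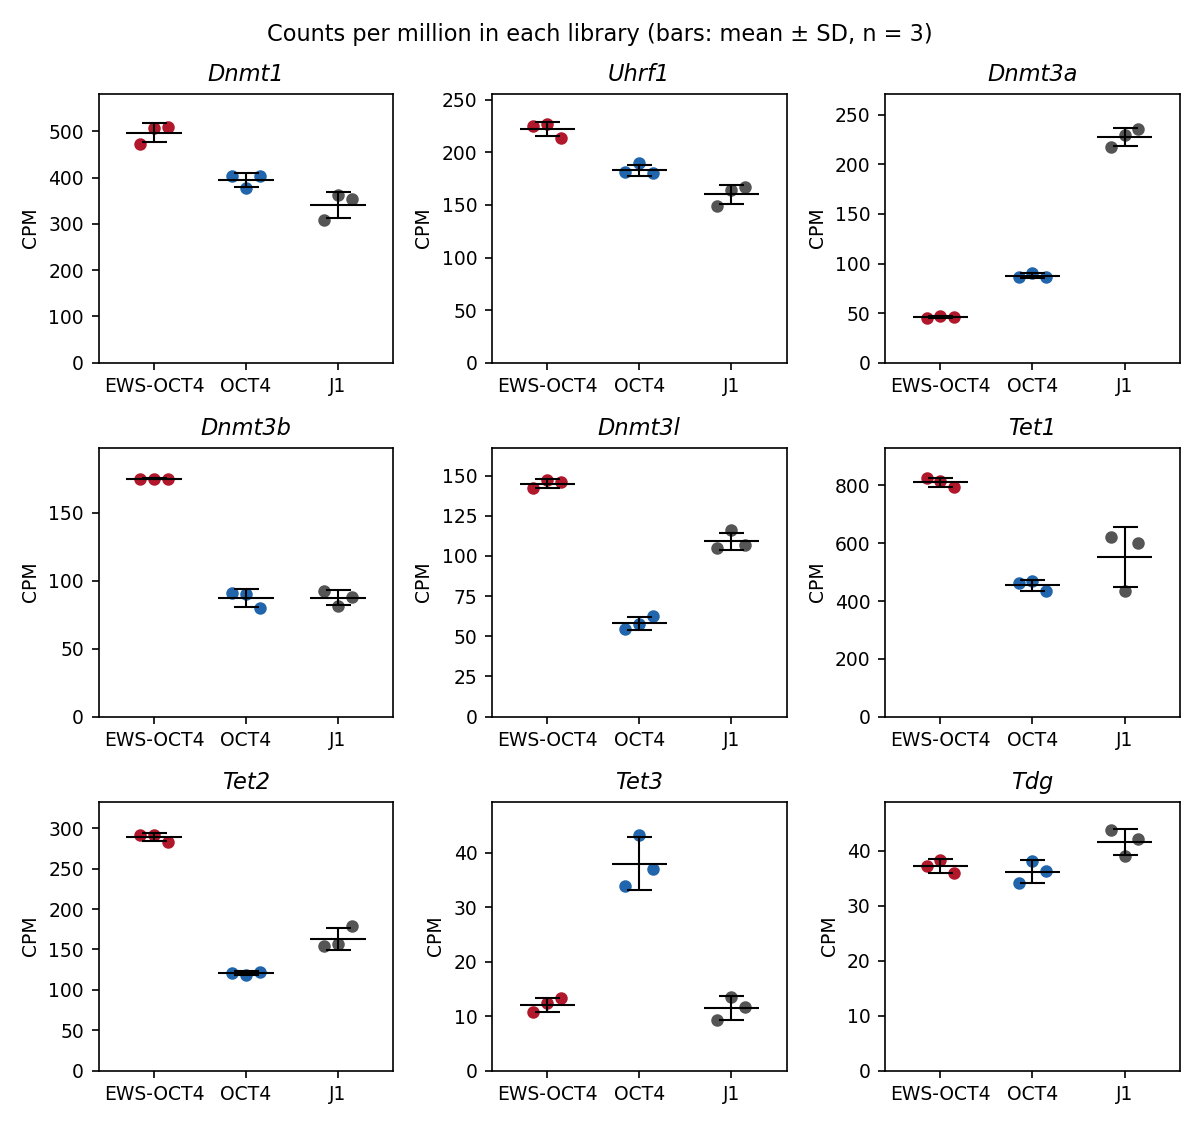
CPM (counts scaled to a common library size by TMM) of each member in every library, with 1 panel per gene, EWS-OCT4 left, OCT4 in the middle and J1 right, and bars at the mean ± SD of 3 libraries. Dnmt3a steps up from left to right (means 46.0, 87.8 and 228 CPM), Dnmt3b is high in EWS-OCT4 (175, 87.1 and 87.5 CPM), and Tet3 is high in OCT4 (12.1, 38.0 and 11.5 CPM).

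Library totals ran from 21149358 to 24786305 counts. The thinnest member was Tet3, with at least 223 counts in every library, and Tet1 had up to 18864. The 13 mitochondrial coding genes took 16.3% to 17.1% of counts in EWS-OCT4, 10.1% to 12.5% in OCT4 and 12.5% to 15.7% in J1, and leaving them out with the abundant RNA Gm26917 changed no member's call. Pou5f1, whose counts may include an introduced sequence, averaged 26.8 ± 2.12 CPM in EWS-OCT4, 165 ± 2.61 CPM in OCT4 and 569 ± 61.8 CPM in J1 (SD, n = 3 each). None of 10 ES cell markers was at 0 in any group, and their summed level was 4381 to 4505 CPM in EWS-OCT4, 3346 to 3420 CPM in OCT4 and 5196 to 5753 CPM in J1. These markers did not share one order. Nanog averaged 481 ± 5.26 CPM in EWS-OCT4, 509 ± 18.5 CPM in OCT4 and 261 ± 13.8 CPM in J1. Zfp42 averaged 758 ± 27.4, 429 ± 19.2 and 1420 ± 114 CPM in the same groups. Between EWS-OCT4 and J1, 2 of the 10 were higher in EWS-OCT4 (30.3% of all genes), 5 lower (31.6%) and 3 not called. Between OCT4 and J1, 1 was higher in OCT4 (34.3% of all genes), 8 lower (32.7%) and 1 not called. Between EWS-OCT4 and OCT4, 4 were higher in EWS-OCT4 (31.9% of all genes), 2 lower (34.6%) and 4 not called. The summed level of 7 trophoblast markers was 129 to 134 CPM in EWS-OCT4, 329.7 to 357 CPM in OCT4 and 92.3 to 108 CPM in J1, with none at 0 in any group. Tfap2c made up most of that sum in each group (104 ± 2.84 CPM in EWS-OCT4, 215 ± 3.25 CPM in OCT4 and 91.0 ± 6.46 CPM in J1). In J1 the rest ran from 0.0581 ± 0.0508 CPM for Cdx2 to 4.54 ± 1.53 CPM for Krt7. Between OCT4 and J1, 6 of the 7 were higher in OCT4 (34.3% of all genes) and none lower (32.7%). Hand1 averaged 78.2 ± 8.71 CPM in OCT4 and 1.78 ± 0.251 CPM in J1, and Gata3 19.8 ± 1.95 and 0.183 ± 0.0996 CPM. Cdx2 averaged 7.96 ± 1.24 CPM in OCT4. Not all trophoblast markers shared the order of the sums, since Krt7 was higher in EWS-OCT4 (16.0 ± 0.273 CPM) than in OCT4 (10.5 ± 0.95 CPM). The summed level of 7 primitive endoderm markers was 10.3 to 11.7 CPM in EWS-OCT4, 21.9 to 24.3 CPM in OCT4 and 26.1 to 31.9 CPM in J1, also with none at 0. Dab2 made up most of the J1 sum (17.9 ± 1.65 CPM), while Gata6 averaged 0.382 ± 0.275 CPM in EWS-OCT4, 9.34 ± 0.529 CPM in OCT4 and 1.76 ± 0.753 CPM in J1, and Sox7 was highest in EWS-OCT4 (2.71 ± 0.321 CPM). Fibroblast markers, 9 in number, summed to 28.6 to 32.0 CPM in EWS-OCT4, 57.8 to 64.2 CPM in OCT4 and 80.9 to 100.3 CPM in J1. Only 4 of them had enough counts to enter the test. Thy1 was the largest part of the J1 sum (44.9 ± 6.47 CPM), while Pdgfrb was higher in OCT4 (24.4 ± 0.9 CPM) than in J1 (12.0 ± 1.04 CPM). Dcn was at 0 in EWS-OCT4, Lum in OCT4, and Lum, Dcn and Twist2 in J1. Post-implantation epiblast markers, of which 5 were measured, summed to 65.0 to 68.1 CPM in EWS-OCT4, 44.1 to 49.5 CPM in OCT4 and 115 to 121 CPM in J1. Otx2 made up most of the J1 sum (76.4 ± 4.27 CPM), while Dusp6 was higher in EWS-OCT4 (31.9 ± 2.48 CPM) than in J1 (14.3 ± 1.01 CPM), as was Pou3f1 (8.6 ± 0.372 CPM in EWS-OCT4 and 4.16 ± 0.23 CPM in J1). The part of these cell types in the changes below was not tested, and in bulk RNA fewer cells that carry a transcript and less of it per cell cannot be told apart.

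The maintenance pair was modestly higher in EWS-OCT4. Dnmt1 had 472, 507 and 510 CPM in EWS-OCT4 libraries, 404, 377 and 404 CPM in OCT4 libraries, and 308, 363 and 353 CPM in J1 libraries. The groups did not overlap, with EWS-OCT4 highest and J1 lowest. The log2 fold change was 0.33 between EWS-OCT4 and OCT4 (SE 0.073, edgeR adjusted p = 0.000674), 0.54 between EWS-OCT4 and J1 (SE 0.0731, adjusted p = 5.47e-06) and 0.21 between OCT4 and J1 (SE 0.073, adjusted p = 0.0169). The last call was lost without OCT4 replicate 3 (adjusted p = 0.0548), without J1 replicate 1 (adjusted p = 0.0617) and in a fit of only the 6 libraries compared (adjusted p = 0.05). Dnmt1 lies on chromosome 9, where 581 genes with at least 5 CPM had median log2 fold changes of 0.135, 0.236 and 0.069. Less these medians, the Dnmt1 change was 0.2, 0.31 and 0.14 in the same comparisons. Uhrf1, which recognises half-methylated DNA, had 225, 227 and 214 CPM in EWS-OCT4, 181, 190 and 180 CPM in OCT4, and 149, 164 and 167 CPM in J1. Its order was that of Dnmt1, again with no overlap, and it was 1.21-fold higher in EWS-OCT4 than in OCT4 (log2 0.27, SE 0.0659, edgeR adjusted p = 0.00143), 1.39-fold higher in EWS-OCT4 than in J1 (log2 0.47, SE 0.066, adjusted p = 7.87e-06) and 1.15-fold higher in OCT4 than in J1 (log2 0.20, SE 0.0661, adjusted p = 0.0126). Of the 31-base words in Uhrf1 transcripts, 29.4% also occur in other genes, 26.5% in the pseudogene Gm5648, which was not analysed here, so a share of its reads may have been assigned elsewhere.

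Dnmt3a, the first of the de novo enzymes, had 44.6, 46.9 and 46.5 CPM in EWS-OCT4, 86.7, 90.7 and 86.0 CPM in OCT4, and 218, 230 and 236 CPM in J1. No library of one group reached the range of another. The EWS-OCT4 level was 52.4% of that in OCT4 (log2 -0.93, SE 0.0655, edgeR adjusted p = 1.15e-09) and 20.2% of that in J1 (log2 -2.31, SE 0.0665, adjusted p = 2.15e-14), and the OCT4 level was 38.5% of that in J1 (log2 -1.38, SE 0.0639, adjusted p = 3.71e-12). Dnmt3a lies on chromosome 12, where the median log2 fold change of 398 genes with at least 5 CPM was -0.04 between EWS-OCT4 and OCT4, -0.29 between EWS-OCT4 and J1 and -0.24 between OCT4 and J1. The autosomal medians were 0.06, 0.04 and -0.03. Less its own chromosome's median, the Dnmt3a change was -0.89, -2.02 and -1.14. The overlapping antisense RNA Dnmt3aos had 0 counts in every library.

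Dnmt3b, in contrast, was higher in EWS-OCT4. It had 175, 175 and 175 CPM in the 3 EWS-OCT4 libraries, 91.3, 90.3 and 79.7 CPM in OCT4, and 92.7, 81.7 and 88.2 CPM in J1. EWS-OCT4 stood clear of both other groups, which overlapped each other. The level in EWS-OCT4 was 2.01-fold that in OCT4 (log2 1.01, SE 0.0712, edgeR adjusted p = 1.25e-09) and 2.0-fold that in J1 (log2 1.00, SE 0.0711, adjusted p = 2.17e-09). Between OCT4 and J1 the log2 difference was -0.01 (95% interval -0.16 to 0.14, edgeR adjusted p = 0.931). Of the 31-base words of Dnmt3b, 15.6% also occur in Dnmt3c, a rodent duplicate of Dnmt3b that acts in male germ cells. The symbol Dnmt3c was not among those in the count tables.

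Dnmt3l, the cofactor, had 142, 147 and 146 CPM in EWS-OCT4, 54.4, 57.6 and 62.4 CPM in OCT4, and 105, 116 and 107 CPM in J1. The groups did not overlap, and here OCT4 was lowest and J1 in between. Dnmt3l was 2.5-fold higher in EWS-OCT4 than in OCT4 (log2 1.32, SE 0.0697, edgeR adjusted p = 2.7e-11) and 1.33-fold higher in EWS-OCT4 than in J1 (log2 0.41, SE 0.0677, adjusted p = 4.75e-05), and its level in OCT4 was 53.3% of that in J1 (log2 -0.91, SE 0.0695, adjusted p = 2.71e-09). Aire overlaps Dnmt3l in the annotation and had 1113 counts over all libraries, where Dnmt3l had 21563. Whether counting used strand is not given in the sources used here, so reads in the shared stretch are uncertain.

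Set against each other within a library, which needs no scaling between libraries, the 3 Dnmt3 genes gave a different balance in each group. The ratio of Dnmt3a counts to Dnmt3b counts was 0.255 to 0.268 in EWS-OCT4, 0.949 to 1.08 in OCT4 and 2.35 to 2.82 in J1. On the log2 scale it was different by -1.94 between EWS-OCT4 and OCT4 (3.84-fold lower), by -3.31 between EWS-OCT4 and J1 (9.92-fold lower) and by -1.37 between OCT4 and J1 (2.58-fold lower). The ratio of Dnmt3a to Dnmt3l was 0.314 to 0.319 in EWS-OCT4, 1.38 to 1.59 in OCT4 and 1.99 to 2.21 in J1, with log2 differences of -2.25, -2.72 and -0.47 in the same comparisons. The ratio of Dnmt3b to Dnmt3l was 1.19 to 1.23 in EWS-OCT4, 1.28 to 1.68 in OCT4 and 0.707 to 0.88 in J1, with log2 differences of -0.31, 0.59 and 0.9. In both comparisons involving EWS-OCT4 these differences were smaller than those of the other ratios, and between OCT4 and J1 the smallest was that of Dnmt3a to Dnmt3l. No ratio overlapped between any groups, though Dnmt3b to Dnmt3l came close, at up to 1.23 in EWS-OCT4 and from 1.28 in OCT4. Of all single genes, 65.7% to 72.9% did not overlap either, and no such share was computed for ratios of other genes. Each of the 9 two-sided exact permutation tests gave p = 0.1, the smallest that 3 libraries against 3 allow, and 0.1 after Benjamini-Hochberg adjustment over the 9, so none could pass 0.05.

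**Figure D2:**
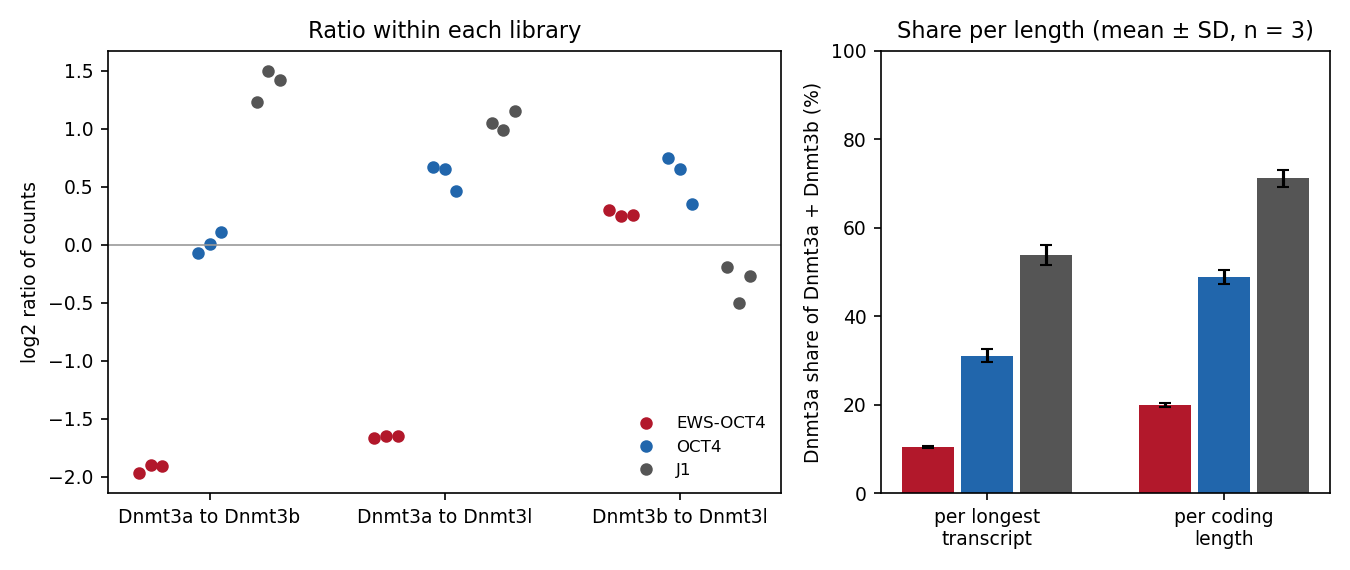
Left, the log2 ratio of counts of each pair of Dnmt3 genes in every library, with EWS-OCT4 left of OCT4 and J1 within each pair. Right, the share of Dnmt3a in the sum of Dnmt3a and Dnmt3b after division by length, as bars of the mean ± SD of 3 libraries. The Dnmt3a to Dnmt3b points lie near -1.93 in EWS-OCT4, 0.01 in OCT4 and 1.38 in J1, and the share of Dnmt3a is 10.5%, 31.1% and 53.8% per longest transcript.

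Comparing levels between genes needs a length, and for Dnmt3a the choice matters because its longest transcript has 9685 bases and its coding length is 2724. Per longest transcript, Dnmt3a made up 10.5 ± 0.258% of the summed Dnmt3a and Dnmt3b level in EWS-OCT4, 31.1 ± 1.38% in OCT4 and 53.8 ± 2.31% in J1 (SD, n = 3 each). Per coding length the shares were 19.9 ± 0.439% in EWS-OCT4, 48.9 ± 1.6% in OCT4 and 71.2 ± 1.92% in J1. By either length Dnmt3b made up most of the pair in EWS-OCT4 and Dnmt3a most of it in J1. The summed level of the pair per kilobase of longest transcript was 45.2 ± 0.1 CPM in EWS-OCT4, 29.2 ± 1.66 CPM in OCT4 and 43.8 ± 1.06 CPM in J1. Per kilobase of coding length it was 84.7 ± 0.395 CPM in EWS-OCT4, 66.0 ± 3.12 CPM in OCT4 and 118 ± 2.77 CPM in J1. OCT4 was thus lowest by both lengths, while the order of EWS-OCT4 and J1 turned with the length used.

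Among all members in CPM per kilobase of longest transcript, Dnmt1 (84.6 ± 3.62) and Dnmt3l (79.7 ± 1.42) led in EWS-OCT4 and did not differ beyond their spread. Uhrf1 (61.8 ± 1.89), Tet1 (56.5 ± 1.1), Dnmt3b (40.5 ± 0.0559), Tet2 (31.4 ± 0.537), Tdg (10.6 ± 0.358), Dnmt3a (4.75 ± 0.126) and Tet3 (1.11 ± 0.119) followed. In OCT4 the order was Dnmt1 (67.3 ± 2.61), Uhrf1 (51.2 ± 1.46), then Dnmt3l (31.9 ± 2.21) and Tet1 (31.7 ± 1.35), which did not differ beyond their spread. Dnmt3b (20.2 ± 1.5), Tet2 (13.1 ± 0.239), Tdg (10.3 ± 0.579), Dnmt3a (9.06 ± 0.261) and Tet3 (3.48 ± 0.44) came after them. In J1 Dnmt3l (59.9 ± 3.06) and Dnmt1 (58.1 ± 4.91) did not differ beyond their spread, nor did Uhrf1 (44.5 ± 2.6) and Tet1 (38.4 ± 7.19). Dnmt3a (23.6 ± 0.954) stood next in J1, ahead of Dnmt3b (20.3 ± 1.28), Tet2 (17.8 ± 1.49), Tdg (11.9 ± 0.687) and Tet3 (1.05 ± 0.195), and of these Dnmt3b and Tet2 did not differ beyond their spread. This order turned with the length used. Per kilobase of coding length Tet1 led in EWS-OCT4 (133 CPM), ahead of Dnmt3l (115) and Dnmt1 (102). The J1 means by that length were 90.3 for Tet1, 86.5 for Dnmt3l, 83.8 for Dnmt3a, 70.2 for Dnmt1 and 68.1 for Uhrf1. Tet1 ran from 433 to 621 CPM between J1 libraries, so its place among these genes is not settled. In OCT4 Dnmt1 (81.2) and Uhrf1 (78.2) led by that length too, and Dnmt3a (32.2) stood above Tdg (28.7) and Tet2 (20.9) there. In EWS-OCT4 Dnmt3a (16.9) was next to last by both lengths, and Tet3 was last in each group by both.

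Of the TET enzymes, which start active demethylation, Tet1 and Tet2 were higher in EWS-OCT4 and Tet3 was high in OCT4. Tet1 had 826, 814 and 795 CPM in EWS-OCT4, 462, 470 and 433 CPM in OCT4, and 621, 433 and 602 CPM in J1. EWS-OCT4 lay above both other groups, which overlapped through J1 replicate 2. Tet1 was 1.78-fold higher in EWS-OCT4 than in OCT4 (log2 0.83, SE 0.103, edgeR adjusted p = 2.54e-06) and 1.47-fold higher in EWS-OCT4 than in J1 (log2 0.55, SE 0.103, adjusted p = 0.000199). It was lower in OCT4 than in J1 by a log2 fold change of -0.28 (SE 0.103, edgeR adjusted p = 0.0246), a call lost without OCT4 replicate 1 (adjusted p = 0.0533), OCT4 replicate 3 (0.0915), J1 replicate 1 (0.107) or J1 replicate 3 (0.0914). Tet2 had 291, 292 and 283 CPM in EWS-OCT4, 121, 118 and 122 CPM in OCT4, and 154, 157 and 179 CPM in J1. Its groups did not overlap, with OCT4 lowest. Tet2 was 2.39-fold higher in EWS-OCT4 than in OCT4 (log2 1.26, SE 0.0696, edgeR adjusted p = 4.74e-11) and 1.77-fold higher in EWS-OCT4 than in J1 (log2 0.82, SE 0.0687, adjusted p = 1.74e-08), and its level in OCT4 was 73.8% of that in J1 (log2 -0.44, SE 0.0691, adjusted p = 2.23e-05).

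Tet3, the TET enzyme best known for acting on the paternal genome of the zygote, had 10.7, 12.4 and 13.3 CPM in EWS-OCT4, 33.8, 43.2 and 37.0 CPM in OCT4, and 9.28, 13.5 and 11.7 CPM in J1. OCT4 stood clear of the other groups, which overlapped. The EWS-OCT4 level was 3.12-fold lower than that in OCT4 (log2 -1.64, SE 0.126, edgeR adjusted p = 6.75e-09), and the OCT4 level was 3.3-fold higher than that in J1 (log2 1.72, SE 0.127, adjusted p = 2.94e-09). Between EWS-OCT4 and J1 the log2 difference was 0.08 (95% interval -0.21 to 0.37, edgeR adjusted p = 0.624). The trophoblast marker sum given above was likewise highest in OCT4, and its part in the Tet3 level was not tested. Within the family Tet3 stayed a small part, at 1.25 ± 0.152% of the summed TET level per longest transcript in EWS-OCT4, 7.21 ± 0.803% in OCT4 and 1.89 ± 0.6% in J1. Tet1 made up 63.4 ± 0.288% in EWS-OCT4, 65.6 ± 1.11% in OCT4 and 66.8 ± 4.38% in J1. Tet2 made up 35.3 ± 0.182%, 27.2 ± 1.24% and 31.4 ± 3.79% in EWS-OCT4, OCT4 and J1. The summed TET level per kilobase of longest transcript was 89.0 ± 1.48 CPM in EWS-OCT4, 48.3 ± 1.34 CPM in OCT4 and 57.3 ± 7.68 CPM in J1, so EWS-OCT4 was highest.

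Tdg, the glycosylase, had small differences in all comparisons. It had 37.2, 38.4 and 35.9 CPM in EWS-OCT4, 34.1, 38.2 and 36.3 CPM in OCT4, and 43.7, 39.0 and 42.1 CPM in J1. The stable lines overlapped, and both lay just below J1. Between EWS-OCT4 and OCT4 the log2 difference was 0.04 (95% interval -0.12 to 0.2, edgeR adjusted p = 0.673) and between EWS-OCT4 and J1 it was -0.16 (95% interval -0.32 to -0.01, adjusted p = 0.0672). The comparison of EWS-OCT4 with J1 passed with upper-quartile scaling (adjusted p = 0.0202), with a minimum of 5 CPM (0.0214) and without J1 replicate 2 (0.0198). Between OCT4 and J1 the log2 fold change was -0.20 (SE 0.0746, edgeR adjusted p = 0.0246), a call lost without OCT4 replicate 1 (adjusted p = 0.119), OCT4 replicate 3 (0.0586) or J1 replicate 1 (0.0581). Of its 31-base words, 66.0% also occur in other genes, 58.6% in the pseudogene Tdg-ps, which averaged 0.31 ± 0.168 CPM in EWS-OCT4, 0.976 ± 0.149 CPM in OCT4 and 0.721 ± 0.208 CPM in J1. A second pseudogene symbol in the counts, Tdg-ps2, had more counts than Tdg itself, and its sequence was not compared with Tdg here. Tdg made up 25.7 ± 1.07% of the summed counts of Tdg and Tdg-ps2 in EWS-OCT4, 26.4 ± 2.24% in OCT4 and 26.1 ± 1.21% in J1. The sum of the 2 was 144 ± 2.6 CPM in EWS-OCT4, 137 ± 4.85 CPM in OCT4 and 159 ± 6.94 CPM in J1 (SD, n = 3 each), so the Tdg level itself is uncertain.

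**Figure D3:**
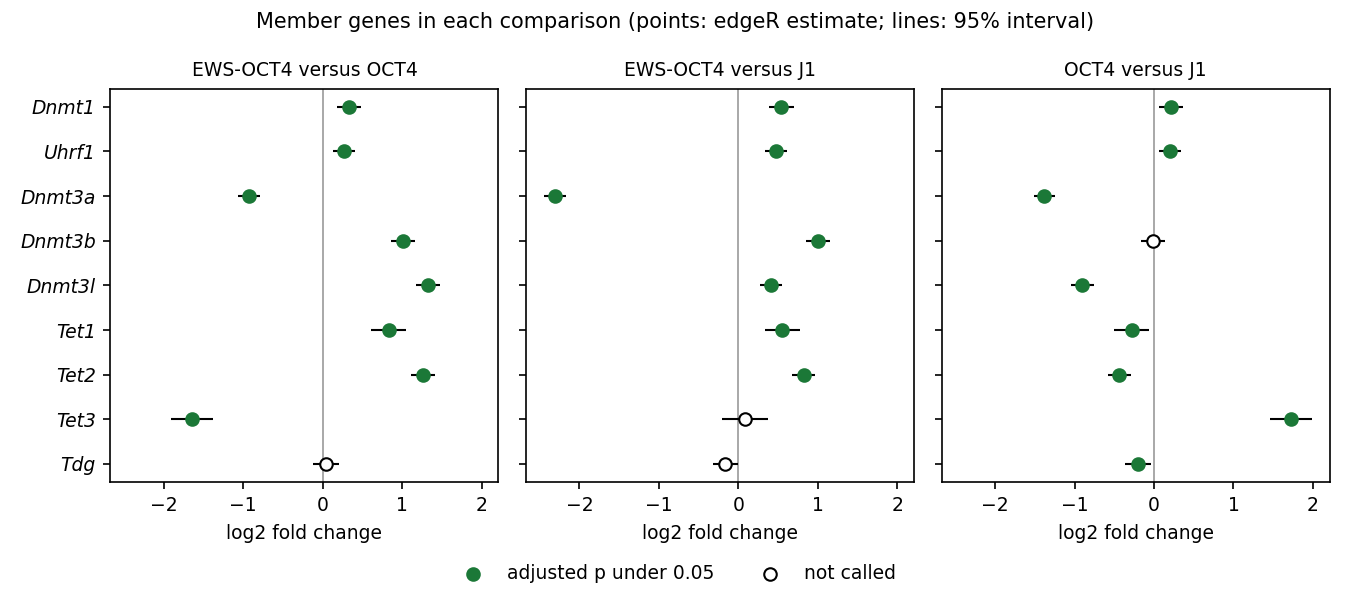
Log2 fold change of each member in the 3 comparisons, with points at the edgeR estimate, lines at its 95% interval, filled points for an adjusted p under 0.05 and open points for the rest. Dnmt3a lies left of 0 in every panel (-0.93, -2.31 and -1.38), and Tet3 lies at -1.64, 0.08 and 1.72.

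The members fell into a few shapes across the groups. Dnmt1 and Uhrf1 descended in the order EWS-OCT4, OCT4, J1, and Dnmt3a ascended in that order. Dnmt3b was high in EWS-OCT4 and level in the others. Dnmt3l and Tet2 were highest in EWS-OCT4 and lowest in OCT4, Tet1 had means in that order too, and Tet3 peaked in OCT4. The comparisons of EWS-OCT4 and of OCT4 with J1 share the J1 libraries, so their values are given side by side only. Among 10301 genes with a named symbol and at least 5 CPM, those most like Dnmt3a over the 9 libraries, by the Pearson correlation of log2 CPM, were Alkbh5 (r = 0.9985), an RNA demethylase, Crabp1 (0.9961), which binds retinoic acid in the cytoplasm, and Wwc1 (0.9948), a regulator of the Hippo pathway. Crabp1 averaged 15.1 ± 0.993 CPM in EWS-OCT4, 28.4 ± 0.948 CPM in OCT4 and 68.8 ± 5.58 CPM in J1. Those most like Dnmt3b were Tpp1 (r = 0.9957), a lysosomal peptidase, Vps33a (0.9942), a vesicle trafficking protein, and Zfp101 (0.9938), a zinc finger protein. Those most like Dnmt3l were Nop2 (r = 0.9987), an RNA methyltransferase of the nucleolus, D17H6S56E-5 (0.9983) and Zscan10 (0.9971), a zinc finger protein of ES cells. Zscan10 averaged 140 ± 4.04 CPM in EWS-OCT4, 51.5 ± 2.98 CPM in OCT4 and 106 ± 11.7 CPM in J1. These correlations are descriptions: the 9 libraries fall into 3 groups and many genes are compared.

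The partners of the maintenance pair were read next. As background for this and the following lists, 31.9% of all tested genes were higher and 34.6% lower in EWS-OCT4 than in OCT4, 30.3% higher and 31.6% lower in EWS-OCT4 than in J1, and 34.3% higher and 32.7% lower in OCT4 than in J1. Counts of a list near these shares are no result about the list. Of 9 such genes, 7 were higher and 1 lower in EWS-OCT4 than in OCT4 (median log2 0.43), 6 higher and 1 lower in EWS-OCT4 than in J1 (median 0.27), and 1 higher and 5 lower in OCT4 than in J1 (median -0.19). Hells, a chromatin remodeller needed for full methylation of repeats, averaged 505 ± 4.24 CPM in EWS-OCT4, 301 ± 20.8 CPM in OCT4 and 478 ± 32.5 CPM in J1. It was lower in OCT4 than in J1 (log2 -0.67, SE 0.072, edgeR adjusted p = 2.51e-07). Usp7, a deubiquitinase that stabilises Dnmt1 and Uhrf1, averaged 562 ± 13.5 CPM in EWS-OCT4 and 333 ± 12.4 CPM in OCT4 (log2 0.75, SE 0.0642, edgeR adjusted p = 1.4e-08). Dppa3, which displaces Uhrf1 from chromatin, averaged 20.4 ± 1.47 CPM in EWS-OCT4, 3.74 ± 0.546 CPM in OCT4 and 17.0 ± 0.948 CPM in J1. It was higher in EWS-OCT4 than in OCT4 by a log2 fold change of 2.44 (SE 0.117, edgeR adjusted p = 7.17e-12). Uhrf2, a relative of Uhrf1, was the one partner lower in EWS-OCT4 than in OCT4 (log2 -0.73, SE 0.105, edgeR adjusted p = 1.13e-05) and than in J1 (-0.61, SE 0.106, adjusted p = 0.000103).

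Histone marks that guide the de novo enzymes are written by methyltransferases of H3K36 and H3K9. Of 5 H3K36 enzymes, 2 were higher and 2 lower in EWS-OCT4 than in OCT4 (median log2 0.16), 4 higher and 1 lower in EWS-OCT4 than in J1 (median 0.56), and 3 higher and none lower in OCT4 than in J1 (median 0.35). Nsd1, whose mark recruits Dnmt3a, averaged 316 ± 9.38 CPM in EWS-OCT4, 249 ± 15.4 CPM in OCT4 and 196 ± 13.5 CPM in J1. It was higher in EWS-OCT4 than in J1 (log2 0.69, SE 0.0713, edgeR adjusted p = 2.3e-07), where Dnmt3a was lower. Setd2, whose mark recruits Dnmt3b in gene bodies, was higher in EWS-OCT4 than in OCT4 (log2 0.58, SE 0.0629, edgeR adjusted p = 2.8e-07). Nsd2 averaged 60.8 ± 2.11 CPM in EWS-OCT4, 90.8 ± 5.08 CPM in OCT4 and 32.3 ± 3.53 CPM in J1. Of 9 genes of H3K9 methylation and KRAB zinc finger silencing, 8 were higher and 1 lower in EWS-OCT4 than in OCT4 (median 0.47), 6 higher and none lower in EWS-OCT4 than in J1 (median 0.21), and 1 higher and 5 lower in OCT4 than in J1 (median -0.21). Zfp57, which protects methylation at imprinted regions, averaged 448 ± 17.7 CPM in EWS-OCT4, 249 ± 4.78 CPM in OCT4 and 325 ± 7.65 CPM in J1. Suv39h1, an H3K9 enzyme of pericentric chromatin, was lower in EWS-OCT4 than in OCT4 (log2 -1.38, SE 0.0836, edgeR adjusted p = 1.52e-10) and higher in OCT4 than in J1 (1.29, SE 0.0828, adjusted p = 2.59e-10).

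Downstream of the TET enzymes, 15 genes of base excision repair and TET regulation did not move one way. In EWS-OCT4 4 were higher and 8 lower than in OCT4 (median log2 -0.25), 5 higher and 5 lower than in J1 (median -0.08), and in OCT4 5 were higher and 6 lower than in J1 (median 0.07). Apex1, the endonuclease that follows Tdg, averaged 101 ± 1.08 CPM in EWS-OCT4, 38.0 ± 3.58 CPM in OCT4 and 54.7 ± 4.86 CPM in J1. It was higher in EWS-OCT4 than in OCT4 (log2 1.41, SE 0.0801, edgeR adjusted p = 6.84e-11). Gadd45b, a stress-induced gene linked to demethylation, peaked in OCT4, at 10.5 ± 0.975 CPM in EWS-OCT4, 40.7 ± 1.29 CPM in OCT4 and 6.74 ± 0.832 CPM in J1. Ogt, a glycosyltransferase that binds TET proteins, also peaked there, at 191 ± 10.1 CPM in EWS-OCT4, 336 ± 25.5 CPM in OCT4 and 176 ± 18.7 CPM in J1. Both had the group order of Tet3 by their means.

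Of 7 proteins that read methylated CpG, 2 were higher and 3 lower in EWS-OCT4 than in OCT4 (median log2 -0.02), 4 higher and 1 lower in EWS-OCT4 than in J1 (median 0.44), and 6 higher and none lower in OCT4 than in J1 (median 0.55). Mbd2, a reader that joins methylated DNA to a repressor complex, averaged 37.8 ± 1.2 CPM in EWS-OCT4, 38.4 ± 1.95 CPM in OCT4 and 20.3 ± 1.74 CPM in J1. It was higher in EWS-OCT4 than in J1 (log2 0.90, SE 0.0813, edgeR adjusted p = 4.25e-08) and in OCT4 than in J1 (0.92, SE 0.0813, adjusted p = 1.77e-08). Zbtb38, a zinc finger reader, averaged 51.8 ± 1.35 CPM in EWS-OCT4, 31.3 ± 1.29 CPM in OCT4 and 21.4 ± 2.26 CPM in J1.

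Another list held 13 genes in the metabolism of S-adenosylmethionine, the methyl donor, or of 2-oxoglutarate, the TET cosubstrate. Of these, 4 were higher and 6 lower in EWS-OCT4 than in OCT4 (median log2 -0.36). In EWS-OCT4 1 was higher and 8 lower than in J1 (median -0.24), and in OCT4 5 were higher and 6 lower than in J1 (median 0.03). Idh1, which makes 2-oxoglutarate in the cytosol, averaged 112 ± 0.673 CPM in EWS-OCT4, 271 ± 7.66 CPM in OCT4 and 132 ± 10.3 CPM in J1. Idh2, its mitochondrial counterpart, averaged 79.3 ± 4.66 CPM in EWS-OCT4, 172 ± 6.15 CPM in OCT4 and 72.8 ± 2.66 CPM in J1. Both were lower in EWS-OCT4 than in OCT4, with log2 fold changes of -1.27 (SE 0.0691, edgeR adjusted p = 3.77e-11) for Idh1 and -1.12 (SE 0.0671, adjusted p = 1.43e-10) for Idh2. Mat2b, a regulatory subunit of S-adenosylmethionine synthetase, averaged 40.8 ± 2.38 CPM in EWS-OCT4, 25.1 ± 1.83 CPM in OCT4 and 68.1 ± 9.11 CPM in J1.

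The last list held 13 germline genes whose promoters are known to be silenced by methylation in somatic cells. None was higher and 6 were lower in EWS-OCT4 than in OCT4 (median log2 -0.36), 6 were higher and 5 lower in EWS-OCT4 than in J1 (median 0.04), and 8 were higher and 3 lower in OCT4 than in J1 (median 0.50). Among all genes 31.9% were higher and 34.6% lower in EWS-OCT4 than in OCT4, and 30.3% were higher and 31.6% lower in EWS-OCT4 than in J1, so these list counts are given as a description only. Taf7l, a testis paralogue of a transcription initiation factor, averaged 6.92 ± 0.388 CPM in EWS-OCT4, 29.9 ± 2.29 CPM in OCT4 and 3.76 ± 0.704 CPM in J1. Dazl, an RNA-binding protein of germ cells, averaged 8.39 ± 0.509 CPM in EWS-OCT4 and 21.5 ± 0.253 CPM in OCT4 (log2 -1.36, SE 0.144, edgeR adjusted p = 3.33e-07). Mael, a piRNA pathway gene, was also lower in EWS-OCT4 than in OCT4 (log2 -1.08, SE 0.123, edgeR adjusted p = 5.39e-07). Unlike Taf7l, Mael was lower in EWS-OCT4 than in J1 as well (log2 -1.33, SE 0.121, edgeR adjusted p = 4.96e-08). Germline genes thus did not share one order of groups. Of the 2 listed regulators of Dnmt3 genes, Prdm14, which represses Dnmt3b and Dnmt3l in naive ES cells, averaged 19.8 ± 0.355 CPM in EWS-OCT4, 22.9 ± 0.371 CPM in OCT4 and 16.1 ± 1.53 CPM in J1. Its difference between EWS-OCT4 and OCT4 (log2 -0.21, SE 0.0855, edgeR adjusted p = 0.0382) was lost in 10 alternatives, with adjusted p up to 0.16. Rbl2, the other, was lower in EWS-OCT4 than in OCT4 (log2 -0.62, SE 0.106, edgeR adjusted p = 5.65e-05) and than in J1 (-0.43, SE 0.106, adjusted p = 0.00196). Trdmt1, a tRNA methyltransferase related to the family, was lower in EWS-OCT4 than in OCT4 (log2 -0.34, SE 0.133, edgeR adjusted p = 0.033), a call lost in 6 alternatives.

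**Figure D4:**
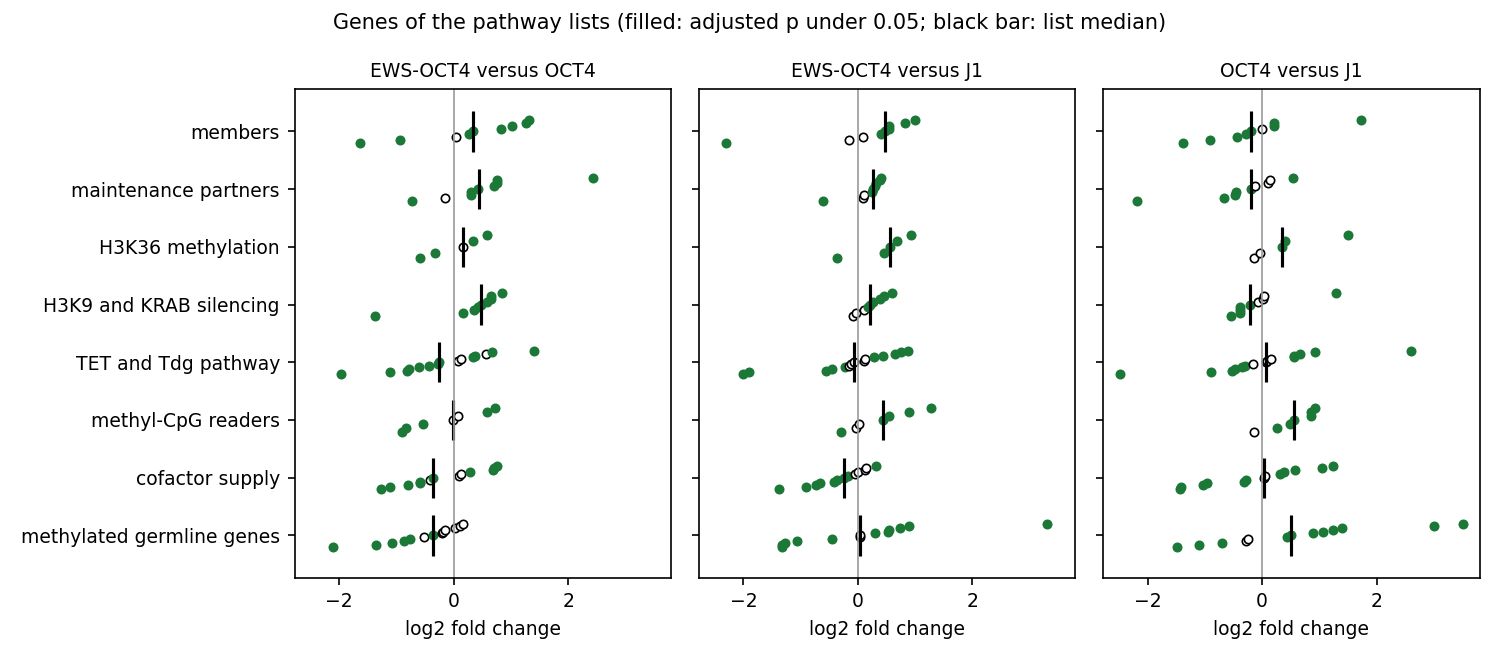
Log2 fold change of every tested gene of the members and the pathway lists in the 3 comparisons, with filled points for an edgeR adjusted p under 0.05, open points for the rest and a black bar at each list's median. The maintenance partners and the H3K9 and KRAB genes have medians of 0.43 and 0.47 between EWS-OCT4 and OCT4 and of -0.19 and -0.21 between OCT4 and J1.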

How the data were processed

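Total RNA was extracted with RNAiso Plus and made into libraries with the CORALL RNA-seq V2 kit, per the labels' protocols. For each library the authors deposited a table of raw whole-number counts by symbol. Tools named by the submitters' processing notes are STAR, Salmon, fastp and GATK, on GRCm39, with no versions or roles. Annotation, strandedness and the handling of molecular identifiers were not given in the sources used here.

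All 9 libraries, grouped by their titles, were fitted together with 1 mean per group in edgeR 4.0.16, under R 4.3.3, after filterByExpr (minimum count 10, minimum total 15), TMM scaling and the robust quasi-likelihood test (glmQLFit, glmQLFTest), adjusted by Benjamini-Hochberg over 16562 genes at 0.05. CPM values use TMM-scaled library sizes. The standard error is the size of the log2 fold change over the root of its F statistic. Lengths, shared words and chromosomes came from GENCODE M21 (GRCm38), matched by symbol, and promoter windows from RefSeq. Within-library ratios used a prior count of 0.5. The fit was first tested on simulated data.

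Members and lists were chosen with earlier results of these data known. The named genes were all members and, of each list, up to 2 per direction with the largest called change and at least 5 CPM in the higher group (1 CPM for germline genes), from which the text takes examples. A few list genes, such as Mbd2, are also described in a second comparison. The genes most like each Dnmt3 gene are the 3 with the highest correlation. Alternatives were upper-quartile or RLE scaling, a fit without the count filter, one with at least 5 CPM in 3 libraries, DESeq2 1.42.0, limma-voom (limma 3.58.1), only the 6 libraries compared, the replicate block, leaving out mitochondrial genes and Gm26917, and leaving out each library.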

Additional observations from a re-analysis of the deposited data

How the results depend on the processing

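Of 486 values of members under alternatives, 467 kept their direction and their side of the threshold, 10 lost a call, 3 gained one and 6 changed sign. The 6 were small differences that passed no test: Tdg between EWS-OCT4 and OCT4 at -0.00034 (upper-quartile scaling), -0.0036 (minimum of 5 CPM) and -0.0029 (without OCT4 replicate 1), Tet3 between EWS-OCT4 and J1 at -0.058 (without J1 replicate 1), and Dnmt3b between OCT4 and J1 at 0.055 (without OCT4 replicate 3) and 0.03 (without J1 replicate 1). Members called between OCT4 and J1 ranged from 5 to 8 when 1 library was left out, with 5 without OCT4 replicate 3 or J1 replicate 1, where Dnmt1, Tet1 and Tdg were lost together. Leaving out 1 library gave 0.077 at most for Tdg between EWS-OCT4 and OCT4, 0.22 for Tet3 between EWS-OCT4 and J1, and -0.06 at the lowest for Dnmt3b between OCT4 and J1. The causes were not tested. Calls of Uhrf1, Dnmt3a, Dnmt3l and Tet2 held in every comparison and alternative run, as did those of Dnmt3b and Tet3 in the comparisons where they passed. For Uhrf1 between OCT4 and J1 the margin was narrow, with adjusted p up to 0.0487 over the alternatives. Leaving out each library gave 10218 to 11665, 9310 to 10273 and 10541 to 11214 genes called in the 3 comparisons. Same-numbered libraries deviated together with correlations of 0.007 to 0.123, over 0.1 in 2 of 9 pairs. Of 18 deviations, 13 matched best with their own number, a hint of weak pairing from the data only. The labels do not say whether the numbers pair libraries, and these values do not settle it. With the replicate block, 11246, 10534 and 11356 genes and 8, 7 and 8 members passed, and ratio differences kept their values with a sign-flip p of 0.25, the smallest for 3 pairs. With 3 libraries a group, ratios within libraries could not pass a threshold of 0.05, and levels of Tdg and Uhrf1 depend on how reads shared with near copies were assigned.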
